A study of Mus musculus with 16 samples.

Results

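The megakaryocyte and platelet genes described here are Pf4, Ppbp, Gp1ba, Gp1bb, Gp5, Gp6, Gp9, Treml1 and Clec1b, measured by RNA sequencing in endothelial cells sorted from mouse bone. They were chosen by name, through their symbols in the regional and Lats2 tables and their Ensembl identifiers in the Yap1 and Wwtr1 files, and 9 of 9 were found among the 38926 genes of each of the symbol tables and the 21603 genes of the other. The study asked how endothelial cells differ between the metaphysis and the marrow, and what the loss of Yap1 and Wwtr1 (which encodes Taz) or of Lats2 changes in them. It holds 16 libraries on a C57BL/6 background, each with its values in FPKM (reads scaled to gene length and sequencing depth), and each of the 3 pairs of groups was normalised and is compared on its own.

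The mpEC (metaphyseal) and bmEC (diaphyseal marrow) groups hold 3 libraries each from 3-week-old mice labelled wildtype, which carried the Cdh5-mT/nG endothelial reporter used for the sort. A further 3 control libraries came from Yap1flx/flx; Wwtr1flx/flx mice negative for Cdh5CreERT2, and 3 libraries labelled ECKO from mice with these floxed alleles that were positive for it, all at postnatal day 21. Lats2flx/flx mice gave 2 control libraries negative for Cdh5CreERT2 and 2 libraries labelled Lats2 cKO positive for it, from 3-week-old mice. Cdh5CreERT2 is a recombinase driven by the Cdh5 promoter, active in endothelial cells once tamoxifen is given, and the pups of these crosses received tamoxifen. The methods combine animals irrespective of sex, but also name male mice for wild-type bone, and the sex behind each library is not given in the sources used here. Between 4741014 and 14807094 reads per library were estimated from the FPKM values with annotated exon lengths. These can differ from the lengths the authors used, so the totals are approximate.

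Megakaryocytes are large marrow cells that lie against sinusoidal endothelium and shed platelets through it into the blood. Platelets carry RNA and protein from their parent cell, including chemokines stored in granules, an adhesion complex for von Willebrand factor, a collagen receptor and a receptor for podoplanin. Transcription factors of the GATA and ETS families act on the promoters of many genes of this lineage.

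The promoters of the 9 members were searched on both strands for GATAAG and AGGAAG, short core motifs of the GATA and ETS families. Whether these motifs bear on how the genes vary between libraries was not tested. No match of the first overlaps a match of the second in the members' windows. The sequences are the 250 bases before each gene's start in RefSeq (GRCm38.p6), and 9 of 9 members matched. The promoters of Clec1b (chr6:129397047-129397296, plus strand), Ppbp (chr5:90768268-90768517, plus strand) and Pf4 (chr5:90772185-90772434, plus strand) are shown because each of these genes passed the test in a comparison, and that of Gp1ba (chr11:70638872-70639121, plus strand) because it holds both motifs. Capitals mark the motif as read on the strand shown, so that CTTCCT is AGGAAG on the opposite strand.
Clec1b: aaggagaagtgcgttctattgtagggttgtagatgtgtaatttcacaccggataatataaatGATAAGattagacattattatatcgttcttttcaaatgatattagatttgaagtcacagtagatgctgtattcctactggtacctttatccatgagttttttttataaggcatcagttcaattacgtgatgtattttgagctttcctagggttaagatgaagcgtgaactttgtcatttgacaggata
Ppbp: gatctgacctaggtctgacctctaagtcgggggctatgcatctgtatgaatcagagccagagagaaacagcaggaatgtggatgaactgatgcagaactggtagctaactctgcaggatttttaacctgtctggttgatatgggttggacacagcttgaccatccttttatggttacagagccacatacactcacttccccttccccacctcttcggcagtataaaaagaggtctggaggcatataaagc
Pf4: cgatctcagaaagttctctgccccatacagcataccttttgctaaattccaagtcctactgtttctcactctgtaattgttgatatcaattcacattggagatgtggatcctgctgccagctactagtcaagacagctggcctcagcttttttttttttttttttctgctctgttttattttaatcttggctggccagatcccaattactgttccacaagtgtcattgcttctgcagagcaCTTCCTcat
Gp1ba: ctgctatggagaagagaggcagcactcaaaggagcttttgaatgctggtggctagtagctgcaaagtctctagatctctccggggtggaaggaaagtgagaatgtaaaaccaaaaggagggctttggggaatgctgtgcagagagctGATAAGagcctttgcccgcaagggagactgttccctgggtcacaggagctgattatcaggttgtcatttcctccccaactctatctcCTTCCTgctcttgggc

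GATAAG was present in 4 of 9 promoters (Clec1b, Gp1ba, Gp6 and Gp9), against 6.55% of 32851 mouse promoters of this length. AGGAAG was present in 4 of 9 (Pf4, Gp1ba, Gp5 and Gp9), against 29.5% of all promoters. Gp1ba and Gp9 held both, which 2.06% of all promoters do, and Ppbp, Gp1bb and Treml1 held neither. In Gp1ba and in Gp9 the AGGAAG match began at position -16 from the start of the gene, while GATAAG began at -103 in Gp1ba and at -43 in Gp9. A match describes the letters of these windows and is no evidence of binding. Pf4 and Ppbp lie next to each other on chromosome 5, on the same strand with 2371 bases between them.

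The targeted genes were examined first. Wwtr1 had 10, 9.88 and 10.3 FPKM in control libraries 1, 2 and 3 and 15.3, 19.6 and 19.5 FPKM in the libraries labelled ECKO, so it was higher in every library whose label says it was deleted. The difference passed the test (log2 fold change 0.78, SE 0.12, adjusted p = 0.0272, limma with Benjamini-Hochberg adjustment). The call was lost without any filter on low values, without ECKO library 2 and without ECKO library 3, where limma called 0 genes higher. Yap1 had 1.07, 1.62 and 0.995 FPKM in the controls and 1.43, 1.03 and 0.989 FPKM under the ECKO label, and the groups overlapped. These values go against the label, and the directions given for the libraries labelled ECKO follow the label as it stands. Lats2 had 23.4 and 24.0 FPKM in its controls and 19.2 and 19.2 FPKM in the libraries labelled Lats2 cKO, a difference that did not pass the test (log2 fold change -0.29, adjusted p = 0.125, limma). Which exons are floxed is not given in the sources used here, and whole-gene FPKM may include exons outside the deleted part.

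Endothelial markers were high in every library, with Cdh5 at 149 to 203 FPKM in mpEC and 160.1 to 182 FPKM in bmEC libraries, 101 to 143 FPKM in the libraries of the Yap1 and Wwtr1 cross and 229 to 277 FPKM in those of the Lats2 cross. Markers of other marrow cells were present as well. The 9 erythroid genes summed to 28361 to 60541 FPKM in mpEC and bmEC libraries, led by the globin gene Hbb-bs. The 5 blood progenitor genes (Kit, Flt3, Myb, Cd48 and Hlf) summed to 303 to 349 FPKM in the libraries of the Yap1 and Wwtr1 cross and to 20.9 to 44.6 FPKM in all others, and the 10 endothelial genes to 554 to 755 FPKM against 1196 to 2339 FPKM. In bulk libraries such as these, fewer megakaryocytes or platelets and less RNA in each cannot be told apart, and neither can RNA of the endothelial cells and of blood cells sorted with them.

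Some libraries stood apart in these genes. Library 1 of mpEC and library 1 of bmEC each held the highest value of their group in 8 of 9 members, Gp1bb being the exception in both, and Lats2 control library 2 was above library 1 in 9 of 9. The summed FPKM of the 9 members was 340.2, 78.1 and 129.8 in mpEC libraries 1, 2 and 3 and 495, 84.0 and 217 in bmEC libraries 1, 2 and 3. In the Lats2 controls it was 29.7 and 119. By contrast, it was 146, 137 and 158 in the controls of the Yap1 and Wwtr1 cross and 152, 177 and 178 under the ECKO label, and 11.9 and 9.02 under the Lats2 cKO label. Results are therefore given with all libraries and, as alternatives chosen after seeing the data, without library 1 of both mpEC and bmEC; the Lats2 comparison is also given without its control library 2.

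**Figure D1:**
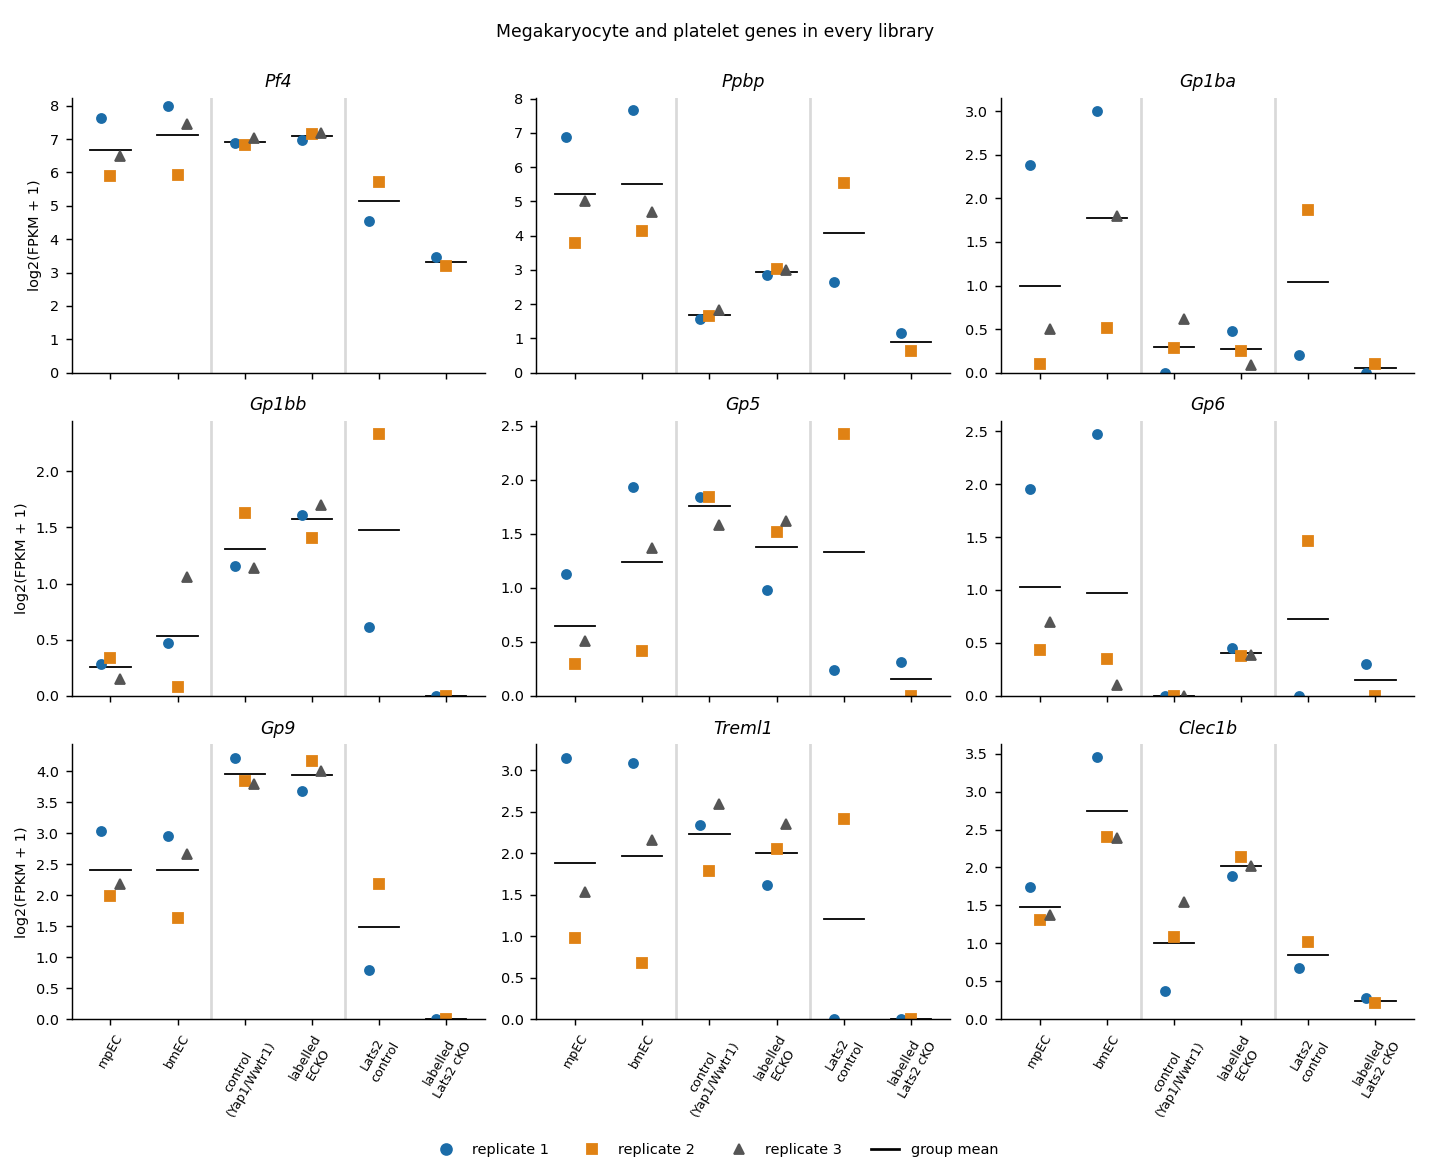
Level of each member in every library as log2(FPKM + 1), by group, with replicates as points of different shape and the group mean as a line; grey lines separate the tables, which were normalised separately. Replicate 1 of mpEC and of bmEC is highest in 8 of 9 panels, and replicate 2 of the Lats2 controls is above replicate 1 in 9 of 9.

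Pf4 encodes platelet factor 4, a chemokine of the alpha granules. It had 197, 59.0 and 89.8 FPKM in mpEC libraries 1, 2 and 3 and 254, 59.2 and 173 FPKM in bmEC libraries 1, 2 and 3. In the Yap1 and Wwtr1 cross it had 118, 113 and 131 FPKM in the controls and 125, 142 and 144 FPKM under the ECKO label, and in the Lats2 cross 22.3 and 51.9 FPKM in the controls and 9.95 and 8.23 FPKM under the Lats2 cKO label. By group mean in FPKM the order was bmEC (162 FPKM), ECKO (137), the controls of that cross (121), mpEC (115), the Lats2 controls (37.1) and Lats2 cKO (9.09), and the ranges of the first 4 overlapped one another. The tables were normalised separately, and in ppm of each library's summed FPKM the order was ECKO (449 ppm), the controls of that cross (408), bmEC (336), mpEC (259), the Lats2 controls (109) and Lats2 cKO (22.2), so that bmEC lay below both groups of that cross and the Lats2 groups were lowest on both scales. Only in the Lats2 cross were the groups of a comparison apart, with both libraries labelled Lats2 cKO below both controls. There Pf4 fell from 37.1 ± 21.0 to 9.09 ± 1.22 FPKM (mean ± SD, n = 2 and 2), which is -1.80 in log2 units (SE 0.39, adjusted p = 0.0320, limma with Benjamini-Hochberg adjustment). P-values here measure the spread between these samples. The call was lost without any filter on low values (adjusted p = 0.0734) and without each of the 4 libraries (adjusted p = 0.10 to 0.149 by limma, where the lone library of a group is taken to vary like the other group), and the adjusted p ranged from 0.0216 to 0.149 over 11 alternatives. Without control library 2 the log2 fold change was -1.21 (adjusted p = 0.118), and without control library 1 it was -2.40 (adjusted p = 0.129). Elsewhere the log2 fold change of Pf4 was 0.44 (SE 0.58) in bmEC against mpEC and 0.18 (SE 0.10) under the ECKO label, with limma adjusted p of 0.628 and 0.395.

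Ppbp encodes pro-platelet basic protein, the precursor of granule chemokines that include the neutrophil attractant CXCL7. It had 117, 12.8 and 31.4 FPKM in mpEC and 203, 16.7 and 24.9 FPKM in bmEC libraries 1, 2 and 3, a range of 9.15-fold and 12.1-fold from the lowest to the highest library. In the Yap1 and Wwtr1 cross it had 1.95, 2.15 and 2.54 FPKM in the controls (10, 16 and 17 reads) and 6.15, 7.13 and 7.01 FPKM under the ECKO label (31, 45 and 43 reads). Every library labelled ECKO was above every control of this cross. Ppbp rose there from 2.22 ± 0.301 to 6.76 ± 0.534 FPKM (mean ± SD, n = 3 and 3), which is 1.27 in log2 units (SE 0.13, adjusted p = 0.0117, limma), and the added 1 FPKM makes this smaller than the ratio of the means. The adjusted p ranged from 0.00710 to 0.0983 over 13 alternatives, and the call was lost without the filter (0.0679), without ECKO library 2 (0.0711) and without ECKO library 3 (0.0983). Ppbp in the Lats2 cross had 5.21 and 45.6 FPKM in the controls and 1.23 and 0.558 FPKM (5 and 3 reads) under the Lats2 cKO label. The groups were apart, but the controls lay 8.75-fold from each other and the difference did not pass the test (log2 fold change -3.19, SE 0.92, adjusted p = 0.0638, limma; 0.0382 to 0.239 over 11 alternatives). In bmEC against mpEC limma gave Ppbp a log2 fold change of 0.27 (SE 1.01) with an adjusted p of 0.874, and 0.02 without library 1 of both groups.

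Both chemokines sit in the same interval of chromosome 5, yet their levels relative to each other differed between the tables. Pf4 FPKM divided by Ppbp FPKM was 1.68, 4.61 and 2.86 in mpEC libraries and 1.25, 3.54 and 6.98 in bmEC libraries. It was 60.6, 52.5 and 51.7 in the controls of the Yap1 and Wwtr1 cross and 20.3, 20 and 20.6 under the ECKO label. The Lats2 controls had ratios of 4.28 and 1.14, and the libraries labelled Lats2 cKO 8.11 and 14.7. The ratio was thus lowest in the library with the most member RNA of each of the mpEC, bmEC and Lats2 control groups, and in the Yap1 and Wwtr1 cross it was near 20 in each library labelled ECKO and above 50 in each control. Pf4 made up 43.6% to 91.2% of the members' summed FPKM in the 16 libraries. Ppbp made up 1.34% to 1.61% of it in the controls of the Yap1 and Wwtr1 cross, its lowest shares, and 40.9% in bmEC library 1, 38.3% in Lats2 control library 2 and 34.4% in mpEC library 1, its highest.

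**Figure D2:**
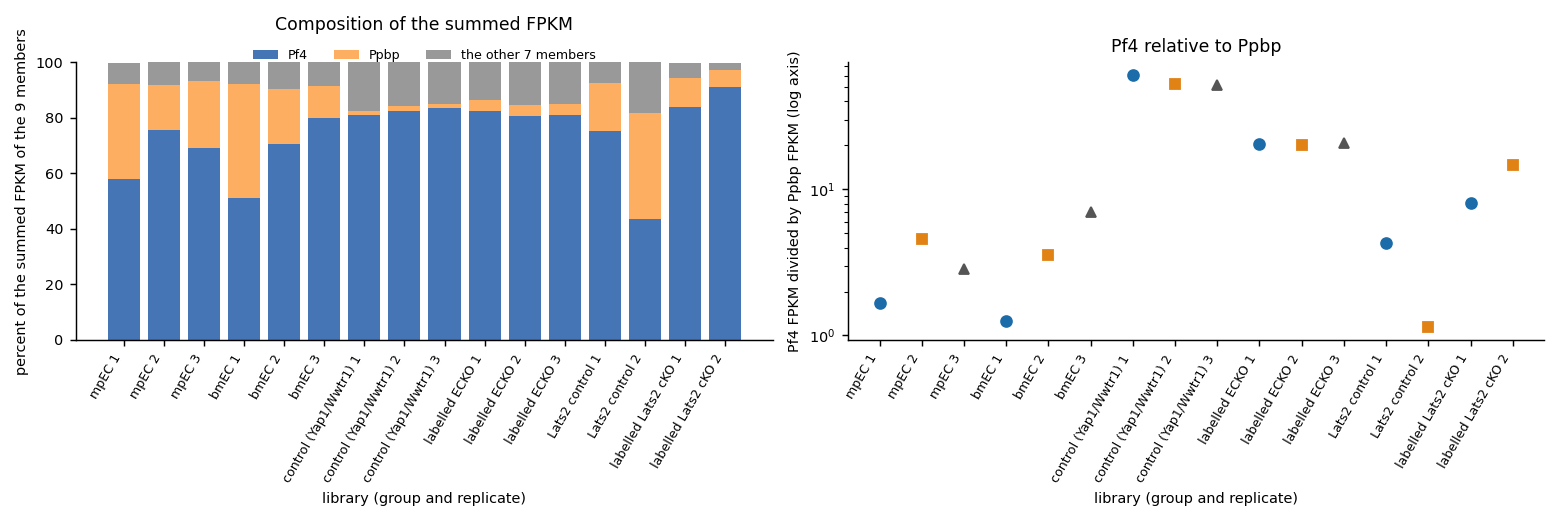
Left, share of the summed FPKM of the 9 members held by Pf4, Ppbp and the other 7 members in each library, in percent. Right, Pf4 FPKM divided by Ppbp FPKM in each library on a log axis, where the controls of the Yap1 and Wwtr1 cross lie at 51.7 to 60.6 and the libraries labelled ECKO at 20 to 20.6.

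The GPIb-IX-V complex, the platelet receptor for von Willebrand factor, is built from the products of Gp1ba, Gp1bb, Gp9 and Gp5. Gp1ba encodes the chain that binds von Willebrand factor. It had 4.20, 0.0737 and 0.417 FPKM in mpEC libraries 1, 2 and 3 (141, 2 and 11 reads) and 7.02, 0.428 and 2.47 FPKM in bmEC libraries 1, 2 and 3. Lats2 control libraries 1 and 2 had 0.148 and 2.66 FPKM (2 and 43 reads). Gp1ba thus had a high library in each of these groups, with 2 reads in the lowest library of mpEC and of the Lats2 controls. In all 6 libraries of the Yap1 and Wwtr1 cross it was low, at 0 to 0.535 FPKM and 0 to 9 reads, and the groups overlapped, while the libraries labelled Lats2 cKO held 0 and 1 read. Gp1ba passed the filter of a mean of 1 FPKM only in the regional comparison, with a log2 fold change of 0.78 there (SE 0.73). Its adjusted p was 0.484 by limma (0.0272 to 0.902 over 13 alternatives). The only alternative under 0.05 was replicate number as a block, and the labels give no pairing.

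Gp9 encodes the GPIX chain and was the most abundant receptor gene of the set in the Yap1 and Wwtr1 cross. It had 7.18, 2.97 and 3.56 FPKM in mpEC and 6.74, 2.09 and 5.34 FPKM in bmEC libraries 1, 2 and 3, and 17.7, 13.3 and 12.9 FPKM in the controls and 11.9, 16.9 and 15.0 FPKM in the libraries labelled ECKO. The groups overlapped in both comparisons, with log2 fold changes of 0.01 (SE 0.38) and 0.00 (SE 0.15) and limma adjusted p of 0.987 and 0.994. The Lats2 cross gave 0.743 and 3.52 FPKM in the controls (3 and 17 reads) and 0 reads in both libraries labelled Lats2 cKO, which allows up to 3 reads, or 0.980 and 0.743 FPKM. Such floors cover counting error only. These floors reach the value of control library 1, so Gp9 is not shown to be apart between the groups, and the difference did not pass the test (adjusted p = 0.0901, limma; 0.0453 to 0.231 over 10 alternatives, lowest with voom on recovered reads); its fitted log2 fold change of -1.49 depends on the added 1 FPKM. Gp9 was on this length-corrected scale 24.2 to 62.0 times Gp1ba in the 3 libraries of the Yap1 and Wwtr1 cross with more than 3 Gp1ba reads, and 0.961 to 8.53 times in the 5 such mpEC and bmEC libraries.

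Gp5 encodes the GPV chain. It had 1.18, 0.228 and 0.422 FPKM in mpEC and 2.82, 0.337 and 1.59 FPKM in bmEC libraries 1, 2 and 3. In the Yap1 and Wwtr1 cross it had 2.59, 2.58 and 1.99 FPKM in the controls and 0.975, 1.87 and 2.08 FPKM under the ECKO label. The groups overlapped in both, and the adjusted p was 0.301 and 0.343 by limma (log2 fold change 0.60, SE 0.38, and -0.38, SE 0.19). Gp5 in the Lats2 cross had 0.183 and 4.36 FPKM in the controls (2 and 57 reads) and 0.241 and 0 FPKM (2 and 0 reads) under the cKO label, so that control library 1 lay among them (adjusted p = 0.291, limma). Gp1bb encodes the beta chain of GPIb, and Sept5 and Gm49601 on the same strand cover 92.9% of the bases in its exons, so its values may include their reads. It had 0.0562 to 1.08 FPKM in mpEC and bmEC libraries and was not tested there, 1.20 to 2.09 FPKM in the controls and 1.64 to 2.25 FPKM in the libraries labelled ECKO (adjusted p = 0.493, limma). In the Lats2 cross it had 0.534 and 4.02 FPKM in the controls and 0 reads in both libraries labelled Lats2 cKO, which allows up to 0.423 and 0.320 FPKM (adjusted p = 0.133, limma).

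Gp6 encodes the platelet collagen receptor GPVI. It had 2.88, 0.348 and 0.626 FPKM in mpEC (41, 4 and 7 reads) and 4.54, 0.275 and 0.0738 FPKM in bmEC libraries 1, 2 and 3 (43, 3 and 1 reads), and 0 and 1.75 FPKM in the Lats2 controls (0 and 12 reads). The highest library of each of these groups was again library 1 of mpEC, library 1 of bmEC and library 2 of the Lats2 controls. The regional log2 fold change of Gp6 was -0.06 (SE 0.64, adjusted p = 0.965, limma), and over 12 alternatives it ranged from -1.33 (voom) to 0.41, positive in 4 of them. In the Yap1 and Wwtr1 cross there were 0 reads in each control, which allows up to 0.548, 0.378 and 0.421 FPKM, and 2 reads in each library labelled ECKO, so that a difference was not detectable at this depth. The libraries labelled Lats2 cKO held 1 and 0 reads.

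Treml1 encodes a receptor of the alpha granules that reaches the platelet surface on activation. It had 7.91, 0.964 and 1.90 FPKM in mpEC and 7.50, 0.593 and 3.47 FPKM in bmEC libraries 1, 2 and 3, and 4.05, 2.44 and 5.05 FPKM in the controls and 2.06, 3.15 and 4.09 FPKM in the libraries labelled ECKO. Both pairs of groups overlapped (log2 fold change 0.09, SE 0.69, and -0.23, SE 0.24; adjusted p = 0.949 and 0.653, limma), and the sign of the regional difference turned in 5 of 14 alternatives. Of the 4 libraries of the Lats2 cross, 3 held 0 reads, and control library 2 alone had 4.31 FPKM (32 reads).

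Clec1b encodes CLEC-2, the platelet receptor for podoplanin. It had 2.36, 1.47 and 1.59 FPKM in mpEC libraries 1, 2 and 3 (149, 75 and 79 reads) and 10, 4.27 and 4.23 FPKM in bmEC libraries 1, 2 and 3 (422, 206 and 254 reads). All 3 bmEC libraries were above all 3 mpEC libraries. Clec1b rose from 1.81 ± 0.483 FPKM in mpEC to 6.18 ± 3.35 FPKM in bmEC (mean ± SD, n = 3 and 3), which is 1.27 in log2 units (SE 0.29, adjusted p = 0.0163, limma). Without library 1 of both groups it was 1.05 (adjusted p = 0.00707), and over 14 alternatives the adjusted p ranged from 0.00199 to 0.0568. The call was lost without the filter (0.0532), without mpEC library 2 (0.0519) and without mpEC library 3 (0.0568). Its promoter, shown above, holds GATAAG at position -188.

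In the Yap1 and Wwtr1 cross Clec1b had 0.289, 1.11 and 1.93 FPKM in the controls (7, 39 and 61 reads) and 2.69, 3.42 and 3.07 FPKM in the libraries labelled ECKO (64, 102 and 89 reads). The groups did not overlap, and the difference did not pass the test (log2 fold change 1.02, SE 0.26, adjusted p = 0.0858, limma; 0.0583 to 0.298 over 13 alternatives). In the Lats2 cross it had 0.591 and 1.02 FPKM in the controls (15 and 31 reads) and 0.208 and 0.157 FPKM (4 and 4 reads) under the cKO label, again apart, and it was not tested because its mean was below 1 FPKM.

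In bmEC against mpEC, 8 of 9 members passed the filter, and 1 of them (Clec1b) was called, higher in bmEC. Of all 11422 genes tested, 13% were called higher and 10.5% lower, so 1 of 8 is near the background. Groups that did not overlap were also seen in 1 of 8 members (Clec1b, higher), against 22.1% of all genes higher and 19.2% lower. Without library 1 of both groups Gp1ba, Gp5 and Gp6 fall below the filter, and Pf4, Ppbp, Gp9 and Treml1 had log2 fold changes of 0.47, 0.02, 0.06 and 0.16. Under the ECKO label 7 of 9 members passed the filter and 1 (Ppbp) was called, where 0.883% of 11320 genes were called higher and 0.424% lower. Of those 7 members, 2 (Ppbp and Clec1b) were higher without overlap, against 12.3% of all genes, and 0 were lower, against 11.3%. In the Lats2 cross 6 of 9 members passed the filter and 1 (Pf4) was called, lower, where 11.8% of 12453 genes were called higher and 9.98% lower. All 6 had a lower mean under the Lats2 cKO label, with a median log2 fold change of -1.48 against 0.00 for all genes tested. Of these 6, 4 (Pf4, Ppbp, Gp1bb and Gp9) were lower without overlap in the values as given, against 34.2% of all genes, with 34.0% higher. For Gp9 that separation is within its floor of 3 reads. Without control library 2, Gp1bb, Gp5, Gp9 and Treml1 fall below the filter, so they passed it only through that library. Members that pass the filter through the group where they are high had to differ, so these counts describe the set and are given as no support for a direction. Without Lats2 control library 1 or 2 limma called 0 genes of all tested (2724 and 2879 had an unadjusted p under 0.05), and hence 0 members. Whether the members differ between the 3 comparisons was not tested.

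**Figure D3:**
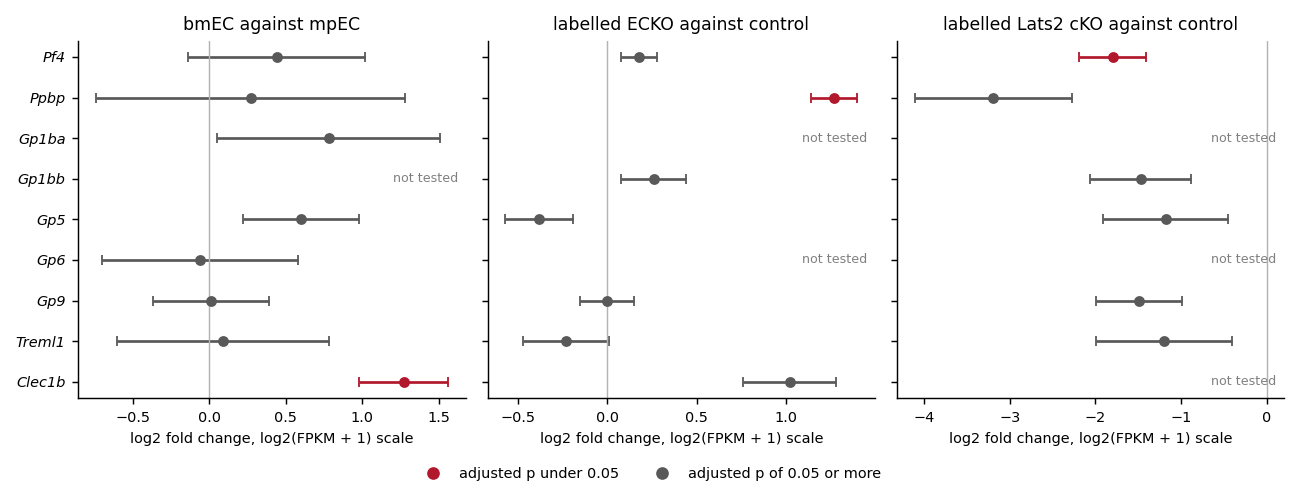
Log2 fold change of each tested member on the log2(FPKM + 1) scale in the 3 comparisons, with bars of ± SE; red points have an adjusted p under 0.05 and the horizontal axes differ in range. Clec1b, Ppbp and Pf4 are the called members, 1 in each comparison, and the bars are wide where a library of the group stands apart.

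How the genes vary together between libraries of a group was described by the deviation of each library from its own group mean, in log2(FPKM + 1). The mean deviation over the 9 members was 0.84, -0.61 and -0.24 in mpEC libraries 1, 2 and 3 and 0.97, -0.91 and -0.07 in bmEC libraries 1, 2 and 3. In the Lats2 controls it was -0.85 and 0.85. In the other 8 libraries it lay between -0.13 and 0.11. All 9 members were above the group mean in mpEC library 1 and in Lats2 control library 2, and all 9 below it in mpEC library 3, bmEC library 2 and Lats2 control library 1. In a group of 2 libraries the deviations mirror each other, so the Lats2 controls give a single observation here. The same libraries were highest after each library was scaled by its median ratio to the others.

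The spread of the members differed from that of other genes in some groups more than in others. The median SD of the 9 members was 0.81 in mpEC, 1.08 in bmEC and 1.18 in the Lats2 controls on the log2 scale, where that of all genes that passed the filter was 0.14, 0.14 and 0.11. It was 0.23 in the controls of the Yap1 and Wwtr1 cross and 0.15 under the ECKO label, against 0.16 and 0.13. In the libraries labelled Lats2 cKO it was 0.07, with several members at 0 reads in both, against 0.15. The members therefore varied widely in 3 groups and by amounts closer to the typical gene in the other 3.

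**Figure D4:**
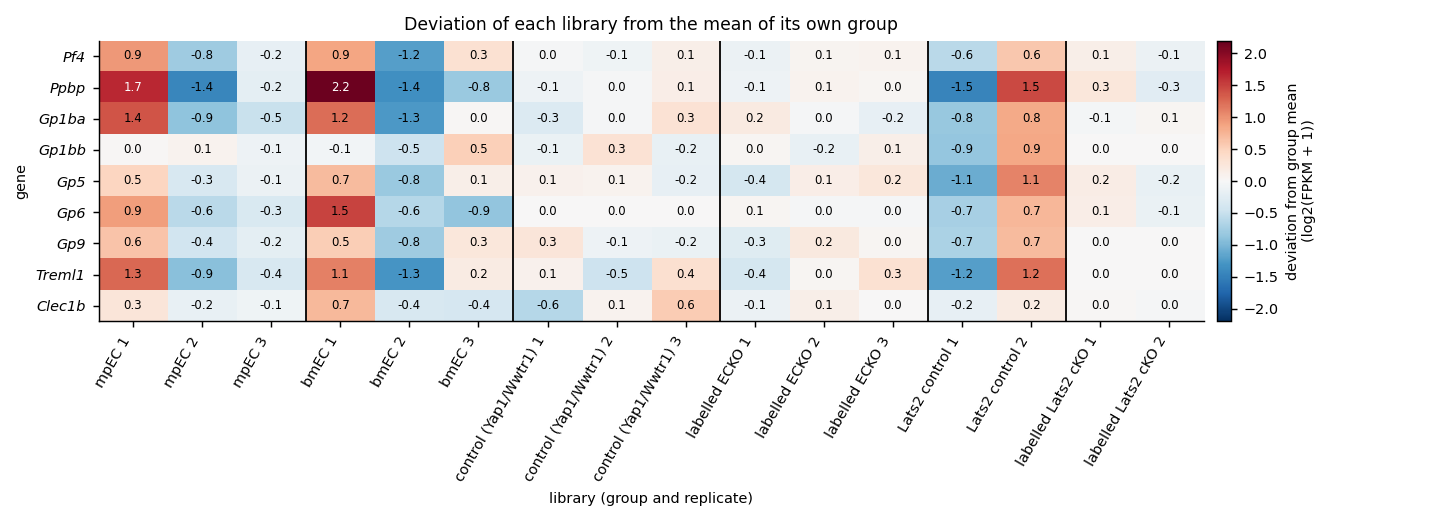
Deviation of each member in each library from the mean of its own group, in log2(FPKM + 1), with the value in each cell and black lines between groups. In mpEC, bmEC and the Lats2 controls most members deviate in the same direction within a library, and in each of the 6 libraries of the Yap1 and Wwtr1 cross the deviations are of mixed sign.

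Over all 16 libraries (10 residual degrees of freedom, since deviations within a group sum to 0), Pearson's r was positive in 36 of 36 pairs of members, from 0.12 to 0.96 with a median of 0.79, and above 0.5 in 30 pairs. Pf4 with Gp1ba and Pf4 with Treml1 both reached 0.95, and Ppbp with Gp6 reached 0.96. The members that stood out were Gp1bb, with a median r of 0.49 in its 8 pairs, and Clec1b, with 0.59; the 21 pairs without them ranged from 0.74 to 0.96 with a median of 0.89. In the 6 mpEC and bmEC libraries alone the median of the 36 pairs was 0.85 (from -0.17 to 0.99). In the 6 libraries of the Yap1 and Wwtr1 cross it was 0.04 (from -0.88 to 0.92), with 18 positive pairs. Pf4 and Treml1 (0.92), Ppbp and Clec1b (0.87) and Pf4 and Ppbp (0.86) had the highest values there. Gp6 and Gp1ba, at 0 to 9 reads in this cross, enter 15 of the 36 pairs, whose values rest on few reads. Without mpEC library 1, bmEC library 1 and Lats2 control library 2, with deviations taken again in the 12 libraries that still share a group, the median was 0.45 (from -0.50 to 0.90) and 27 of 36 pairs were positive. These 3 libraries were left out because the members were jointly high in them, so a lower median was built into that choice. The libraries share depth and sort with the genes they are compared over, and no p is given.

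Among 9064 other genes that averaged 1 FPKM or more in every table, the 10 whose deviations were most like the members' mean deviation over the 16 libraries were Itga2b (r = 0.91), Itgb3 (0.89), Iqgap2 (0.89), Plek (0.88), Emp3 (0.85), Ckap2l (0.84), Gas2l3 (0.84), Arl5a (0.82), Dap3 (0.81) and E2f1 (0.81). The median gene had an r of -0.02, 417 genes were above 0.5 and 477 below -0.5. Itga2b and Itgb3 encode the chains of the platelet fibrinogen receptor, and Plek encodes pleckstrin, a substrate of protein kinase C abundant in platelets. Itga2b had 0.884 and 5.05 FPKM in Lats2 control libraries 1 and 2, 0.972 and 0.663 FPKM in the libraries labelled Lats2 cKO, and 2.77, 1.82 and 1.91 FPKM in mpEC and 3.81, 0.911 and 2.85 FPKM in bmEC libraries 1, 2 and 3. In the Yap1 and Wwtr1 cross it lay between 15.0 and 18.1 FPKM in all 6 libraries. Itgb3, also an osteoclast gene, had 0.375 and 3.02 FPKM in the Lats2 controls and 4.67 and 8.58 FPKM in the libraries labelled Lats2 cKO, higher without overlap where the members were low (log2 fold change 1.65, adjusted p = 0.0916, limma). The choice of these 10 genes depended on the tables used: leaving out the regional, the Yap1 and Wwtr1 or the Lats2 table kept 1, 1 and 3 of them, and a pseudocount of 0.1 FPKM kept 6. Without the 3 libraries that stand apart their r with the members ranged from 0.16 to 0.90.

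Other megakaryocyte and platelet genes varied with the members to different degrees. The mean deviation of 11 other surface receptors (Itga2b, Itgb3 and others) had an r of 0.96 with that of the members over the 16 libraries, 10 genes of the cytoskeleton, enzymes and signalling (Tubb1, Plek, Fermt3 and others) 0.89, 7 granule protein genes (Vwf, Selp, Srgn and others) 0.80, and 7 transcription factor genes (Gata1, Nfe2, Runx1 and others) 0.56. For the 35 genes together r was 0.95, and 0.87, 0.98 and 0.95 without the regional, the Yap1 and Wwtr1 and the Lats2 table. In the 3 libraries labelled ECKO, however, the 35 genes deviated by 0.08, -0.06 and -0.02 and the members by -0.13, 0.05 and 0.08, in opposite directions. Lists of other cells had lower values, with 0.45 for blood progenitors, 0.40 for neutrophils, 0.39 for B cells, 0.16 for macrophages, 0.13 for erythroid cells, -0.17 for osteoblasts, -0.20 for endothelial cells and -0.62 for marrow stroma and pericytes. This contrast depended on the tables: without the Lats2 table r was 0.67 for macrophages, 0.63 for neutrophils, 0.63 for B cells and 0.60 for blood progenitors, against 0.42 for the megakaryocyte transcription factors and 0.95 for the 11 surface receptors. Without the regional table r was 0.52 for endothelial cells, 0.22 for blood progenitors, -0.07 for erythroid cells and -0.07 for marrow stroma and pericytes. It was -0.20 for neutrophils, -0.24 for macrophages, -0.42 for B cells and -0.93 for osteoblasts, against 0.58 for the megakaryocyte transcription factors. In mpEC library 1, however, the osteoblast, neutrophil, B cell, macrophage and erythroid lists also lay above their group mean, by 0.71, 0.69, 0.53, 0.36 and 0.32, and in Lats2 control library 2 they lay below it, at -0.67, -0.16, -0.10, -0.26 and -0.13, where the members lay above.

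In bmEC against mpEC, 27 of the 35 other megakaryocyte and platelet genes were tested, and 5 were higher (Selp, Mmrn1, Srgn, Alox12 and Ptgs1) and 4 lower (Itga2, F2rl3, Tbxa2r and Thbs1), where 13% and 10.5% of all genes were called, with a median log2 fold change of 0.04 against 0.00 for all genes. Selp, Mmrn1 and Thbs1 are also endothelial genes. Mmrn1, which encodes multimerin 1 of platelet and endothelial granules, rose from 70.9 ± 14.9 to 218 ± 43.4 FPKM (mean ± SD, n = 3 and 3), and F2rl3, which encodes the thrombin receptor PAR4, fell from 15.8 ± 0.952 to 3.35 ± 1.24 FPKM (adjusted p = 0.000886 and 0.000458, limma). Of the 35 genes, 7 were higher and 5 lower without overlap, where the shares of all genes tested are 22.1% and 19.2%. Itga2b, Itgb3 and Tubb1 were among those that overlapped between the regions, as the members other than Clec1b did. Without library 1 of both groups 5 of 24 were higher and 3 lower.

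Under the ECKO label 32 of the 35 were tested, 1 was higher and 1 lower, and the median log2 fold change was 0.02 against 0.00. Without overlap 9 of the 35 were higher and 1 lower, where the shares of all genes tested are 12.3% and 11.3%. By kind, the 7 granule protein genes all had a positive log2 fold change (median 0.38, 5 higher without overlap), while the medians of the other kinds were 0.02, 0.00 and -0.03. The 10 endothelial genes were also all positive in this comparison (median 0.36, 9 higher without overlap). Mmrn1 had 18.6, 14.4 and 15.7 FPKM in the controls and 30.4, 30.1 and 26.4 FPKM in the libraries labelled ECKO (log2 fold change 0.81, SE 0.12, adjusted p = 0.0235, limma). Tubb1, which encodes the beta tubulin of the platelet microtubule coil, had 4.94, 3.51 and 4.83 FPKM in the controls and 2.13, 1.34 and 1.13 FPKM under the ECKO label (log2 fold change -1.11, SE 0.18, adjusted p = 0.0347, limma). Tubb1 thus lay in the direction opposite to Ppbp, while Itga2b and Gp9 overlapped between these groups. The 2 calls were down to 0 without the filter, without the trend, and without control library 2 or 3 or ECKO library 2 or 3, where limma gave 8 genes an unadjusted p under 0.05 with all libraries and voom called 2.

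In the same comparison the 10 endothelial genes summed to 563, 561 and 554 FPKM in the controls and 646, 735 and 755 FPKM in the libraries labelled ECKO, led by Cdh5 in all but 1 library (Egfl7). None of the 10 was called by limma, 9 had an unadjusted p under 0.05, and voom called 4 of them higher. The 5 B cell genes summed to 301, 279 and 249 FPKM against 209, 215 and 209.7 FPKM, with 0 called by limma, 5 at an unadjusted p under 0.05 and 1 called lower by voom. Of the erythroid and neutrophil lists 0 of 9 genes each were called by limma or voom or had an unadjusted p under 0.05, and of the macrophage and progenitor lists 0 of 7 and 0 of 5 were called by either, with 2 and 2 at an unadjusted p under 0.05. Osteoblast genes gave 2 lower (Bglap and Col1a1) of 3 tested, and stromal and pericyte genes 0 of 4, with 2 at an unadjusted p under 0.05 and 1 called higher by voom. Their part in the Ppbp difference was not tested.

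Under the Lats2 cKO label 25 of the 35 were tested, with 9 lower (Selp, Mmrn1, Srgn, Fermt3, Alox12, Ptgs1, Gata1, Gfi1b and Nfe2), 3 higher (F2rl3, Vwf and Thbs1) and a median log2 fold change of -0.63 against 0.00, where 9.98% of all genes were called lower and 11.8% higher. Nfe2, which encodes a transcription factor needed for platelet release, fell from a mean of 8.69 FPKM to 1.97 FPKM (n = 2 and 2, adjusted p = 0.0104, limma). Gata1 fell from a mean of 4.19 FPKM to 0.272 FPKM (n = 2 and 2, adjusted p = 0.0150, limma). Nfe2, Gata1 and Gfi1b are all shared with the erythroid lineage. Vwf, which encodes the ligand of the GPIb-IX-V complex and is made by endothelium as well, rose from 3.86 ± 2.83 to 20.4 ± 5.03 FPKM (adjusted p = 0.0252, limma), and Thbs1 from 15.7 ± 8.68 to 171 ± 46.7 FPKM (adjusted p = 0.0105, limma). By kind, the surface receptors gave 1 higher of 6 tested (median 0.65), the granule proteins 2 higher and 3 lower of 6 (median -0.88), the genes of the cytoskeleton, enzymes and signalling 3 lower of 7 (median -1.17) and the transcription factors 3 lower of 6 (median -0.91). Without control library 2 or 1 limma called 0 of them, as of all genes, and the median log2 fold change was -0.32 and -0.82. That of the transcription factors was 0.04 without control library 2, with 3 of 5 positive, where Gfi1b fell below the filter. In control libraries 1 and 2, Nfe2 had 8.54 and 8.83 FPKM and Gata1 3.54 and 4.83 FPKM. Both genes were lower than this in each library labelled Lats2 cKO.

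Erythroid, neutrophil and B cell genes lay lower under the same label. The 9 erythroid genes summed to 3784 and 2543 FPKM in the controls and 1431 and 276 FPKM under the cKO label, led by Hbb-bs in all but cKO library 1 (Hba-a1), with 3 called lower (Klf1, Epor and Slc4a1) and all 9 of negative log2 fold change (median -2.58). The 9 neutrophil genes, led by S100a8, summed to 2935 and 1969 FPKM against 859.9 and 719.5 FPKM with 7 called lower (median -1.67), and the 5 B cell genes, led by Cd79a, to 98.5 and 84.4 FPKM against 26.5 and 20.6 FPKM with 5 called lower (median -1.83). Of 6 macrophage genes tested 1 (Mrc1) was lower, 3 had a positive log2 fold change and the median was 0.14; the list's sums, 658 and 546 FPKM against 312 and 80.5 FPKM, are led by Lyz2. The 10 endothelial genes, led by Esam, summed to 2176 and 2339 FPKM against 2309 and 2329 FPKM, with 2 called higher (Pecam1 and Ramp2) and 2 lower (Kdr and Tek). Progenitor genes gave 1 higher (Kit) and 1 lower (Myb) of 3 tested. The 4 genes other than Kit were lower without overlap, where 34.2% of all genes tested were. Of these 4, Flt3 and Hlf were not tested, with control means of only 0.251 and 0.347 FPKM. Stromal and pericyte genes gave 2 higher (Cxcl12 and Rgs5) of 4, and osteoblast genes 0 of 4 by limma or voom, with 0 at an unadjusted p under 0.05. Without control library 2 the medians were -2.72, -2.01 and -1.89 for erythroid, neutrophil and B cell genes, so their direction did not rest on that library. No gene of these lists was at 0 in every library of a table, and the part of these cells in the members' lower values was not tested.

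In the regional comparison the erythroid genes gave 1 higher (Epor) of 9 and summed to 52993, 28361 and 33605 FPKM in mpEC and 60541, 56132 and 42654 FPKM in bmEC libraries 1, 2 and 3. The neutrophil genes summed to 27857, 11655 and 18056 FPKM against 13918, 9477 and 9951 FPKM, with 0 of 9 called by limma, 4 at an unadjusted p under 0.05 and 4 called lower by voom. Library 1 of both groups was therefore high in neutrophil genes as well as in the members. Of all 10806 genes fitted in this comparison, voom called 2401 lower and 895 higher, so its lower calls are set against that shift. The B cell list gave 0 of 5 by limma, 1 at an unadjusted p under 0.05 and 1 lower by voom, the macrophage list 1 higher (Mrc1) and 1 lower (Lyz2) of 7, the progenitor list 1 lower (Kit) of 3, the osteoblast list 2 lower (Bglap and Col1a1) of 4, the stromal list 1 higher (Lepr) of 3, and the endothelial list 3 higher (Kdr, Tek and Erg) and 4 lower (Pecam1, Emcn, Tie1 and Ramp2) of 10. Their part in the Clec1b difference was not tested.

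Ligands and signalling partners of the member receptors were read from a list of 9 genes (Pdpn, Vwf, Fcer1g, Syk, Plcg2, Lcp2, Lyn, Cxcr2 and Cxcr3). Pdpn, which encodes podoplanin, the ligand of CLEC-2, was near 0 in every group, with means of 0.270 FPKM in mpEC, 0.0913 FPKM in bmEC, 0.0296 FPKM in the controls of the Yap1 and Wwtr1 cross, 0.159 FPKM under the ECKO label, 0 FPKM in the Lats2 controls and 0.420 FPKM under the cKO label. Fcer1g, which encodes the signalling chain of GPVI and is shared with other blood cells, was the most abundant gene of the list in 15 of 16 libraries and fell from 410.0 ± 63.6 FPKM in mpEC to 248 ± 39.5 FPKM in bmEC (n = 3 and 3, adjusted p = 0.00963, limma). In that comparison Cxcr2 was also lower and Lcp2, which encodes the adaptor SLP-76, higher, of 7 tested. Under the ECKO label 0 of 7 were called by limma or voom, with 1 at an unadjusted p under 0.05. In the Lats2 cross limma called Vwf and Lcp2 higher and 0 lower of 7 tested, while 5 had a negative log2 fold change (median -0.40). Voom called 2 of the 7 higher and 3 lower, where it called 1273 of 11727 genes higher and 2041 lower. The mean deviation of this list had an r of 0.60 with that of the members over the 16 libraries, and 0.09 without the regional table.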

How the data were processed

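RNA was sequenced from 16 libraries; the authors used TopHat (genome mm10) and HTSeq 0.6.1 and deposited FPKM. The files of the Yap1 and Wwtr1 cross have no header, and their unit was read from the values. Members and lists were chosen with earlier results of these data known. Genes averaging 1 FPKM or more in a comparison were tested on log2(FPKM + 1) with limma 3.58.1 (R 4.3.3, trended moderation, two-sided) and Benjamini-Hochberg adjustment over all genes tested, with a call at an adjusted p under 0.05; this stands in for the authors' count test with DESeq2, since counts were not used here. Whole reads of each member were recovered as the largest step that makes its FPKM times depth whole in all 16 libraries, within 0.001, taken as 1 read. The rule for named genes was the members, the targeted and endothelial genes, list genes that passed, each list's most abundant gene and the 10 genes most like the members. Other list genes were named after their values were seen. A gene of the lists is not reported here by name. The fit was checked on simulated data, where the Lats2 fit, with 2 libraries a group, recovered fewer changes than the others, so a member that did not pass there is not shown to be unchanged. Summaries and figures used Python 3.11.15, pandas 2.3.3, numpy 2.4.6 and matplotlib 3.10.9. Alternatives varied the pseudocount, filter, scaling, trend, threshold, replicate block and voom on recovered reads, and left out each library.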

Additional observations from a re-analysis of the deposited data

How the results depend on the processing

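The number of members called moved under several alternatives. In bmEC against mpEC (1, Clec1b) it was 0 without the filter, 0 at an adjusted p under 0.01 with an absolute log2 fold change over 0.5, 2 with replicate number as a block (Gp1ba gained, adjusted p = 0.0272 by limma), and 0 to 1 with each library left out. Under the ECKO label (1, Ppbp) it was 0 without the filter, 0 at the stricter threshold and 0 to 1 with each library left out. Under the Lats2 cKO label (1, Pf4) it was 2 with a pseudocount of 0.1 (Ppbp gained), 0 without the filter, 2 with voom on recovered reads (Gp9 gained), 2 with the block (Ppbp gained), 0 at the stricter threshold and 0 with each library left out.

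The regional fold changes that did not pass the test changed sign in places. With voom the log2 fold change of Ppbp was -0.09, of Gp9 -0.24 and of Treml1 -0.27, and Gp6 was at -1.33 with voom, -0.56 with a pseudocount of 0.1 and 0.08 with quantile normalization. With each library left out they ranged from -0.81 to 1.10 (Ppbp), -0.35 to 0.41 (Gp6), -0.26 to 0.41 (Gp9) and -0.47 to 0.74 (Treml1).

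Of all genes, 148 were called under the ECKO label, and 1 without the filter, 17 without the trend, 358 with voom, 45 with the block, 1 at the stricter threshold and 1 to 293 with each library left out. Under the Lats2 cKO label 2711 were called, with 1389 without the filter, 257 at the stricter threshold and 0 to 2701 with each library left out. In bmEC against mpEC 2682 were called, 1335 at the stricter threshold and 1748 without library 1 of both groups. Voom moved the share of calls that were higher from 55.2% to 27.2% (bmEC), 67.6% to 57.5% (ECKO) and 54.1% to 38.4% (Lats2 cKO), with a median log2 fold change of -0.19 in bmEC and -0.14 under the Lats2 cKO label; the cause was not tested. The median correlation of member pairs went from 0.79 to 0.45 without the 3 libraries that stand apart.

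Deviations of libraries of equal number correlated at 0.31, 0.09 and 0.10 between mpEC and bmEC and at -0.18 to 0.07 in the other comparisons, and the labels give no pairing, so the block is given as an alternative only. In fits of 2 libraries against 1 the lone library was assumed to vary like the other group. Groups of 2 and 3 libraries leave the spread poorly known, and many member values rest on fewer than 20 reads. FPKM carry the authors' gene lengths, which are not given in the sources used here.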
